A study of Mus musculus with 6 samples.

Results

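Proteoglycans of the matrix and cell surface, with the genes for hyaluronan synthesis and binding, were examined in myoepithelial cells cultured from the exorbital lacrimal gland of the mouse. The set of 34 genes was chosen by gene symbol from knowledge of the family: core proteins, hyaluronan synthases, link proteins and the hyaluronan receptor Cd44. Earlier results of these data were known when it was chosen. All 34 had a probe set with that single symbol on the array, among 22180 named genes. For the 6 members with more than 1 such probe set, the brightest by its average over all arrays was used. Total RNA had been measured on 6 Affymetrix Mouse Gene 2.0 ST arrays, 3 from female TSP1 null mice and 3 from female wild-type C57BL/6J mice, none of them treated. TSP1 is thrombospondin-1, and the series takes the null mouse to model dry eye disease: cells of the model were set against cells of healthy mice. The labels state neither the background strain nor the allele of the null mice, and no ages. The cells had been grown in serum-containing medium for weeks after collagenase digestion of the gland, so both groups are cultures and not tissue. Arrays of a group are labelled as biological replicates, but no label says that each had its own animal or culture, and p-values then reflect only how far these arrays scatter.

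A proteoglycan is a core protein that carries long, sulfated sugar chains (heparan, chondroitin, dermatan or keratan sulfate), and hyaluronan is a related chain made without a core protein. Perlecan and agrin sit in basement membranes, glypicans and syndecans hold heparan sulfate at the cell surface, where it binds growth factors and thrombospondin-1, and small leucine-rich proteoglycans bind collagen fibrils. Myoepithelial cells lie between the secretory acini and the basement membrane.

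Signals are log2 values on which 1 unit is a doubling, and differences are TSP1 null minus wild type. Every array had a median signal between 5.25 and 5.32, and arrays carry no sequencing depth. The targeted gene, Thbs1, read by probe set 17374488, measured 12.73, 13.03 and 13.00 in the null arrays against 13.51, 13.75 and 13.54 in wild type. Its signal was thus lower but not lost in the null arrays, and the position of its probes against the disrupted region of the gene is not stated here. The contractile marker Acta2, smooth muscle actin, measured between 13.85 and 14.01 on all arrays, and 11 of 12 myoepithelial and contractile markers lay above the median of all named genes. Of basal epithelial markers 4 of 10 did so, of acinar markers 1 of 11, of macrophage markers 19 of 20 and of fibroblast markers 12 of 16.

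No member passed limma's threshold of 0.05 after Benjamini-Hochberg adjustment over all genes, where 0 of 22180 genes passed (0%). At an unadjusted p under 0.05 there were 8 of 34 members, 7 with higher and 1 with lower signals in TSP1 null cells. The 7 higher members are 20.6% of the set, where 6.28% of all genes were higher at this threshold, and for lower signals the share of all genes was 4.27%. They were Agrn, Hspg2, Sdc1, Sdc4, Gpc1, Gpc2 and Spock2, and the lower one was Srgn. Because the set was chosen with earlier results of these data known, its shares beside those of all genes are descriptive only. The set is also brighter than the array, with 24 of 34 members above the median of all named genes. Among the 11090 genes above that median, fitted alone, 1589 had an unadjusted p under 0.05 in either direction. Of the 24 members among them, 7 did so. The 3 null arrays lay on one side of the 3 wild-type arrays, however narrowly, for 10 members, 8 above (10.1% of all genes) and 2 below (5.75% of all genes). The median difference of the 34 members was 0.02, as was that of all named genes. Of the 12 basement membrane, glypican and syndecan genes, 6 were higher at an unadjusted p under 0.05, with a median difference of 0.36, while 0 of the 8 small leucine-rich proteoglycans passed in either direction, with a median of -0.12. These families were pooled and set side by side with earlier results of these data known, and the difference between them was not tested.

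**Figure D1:**
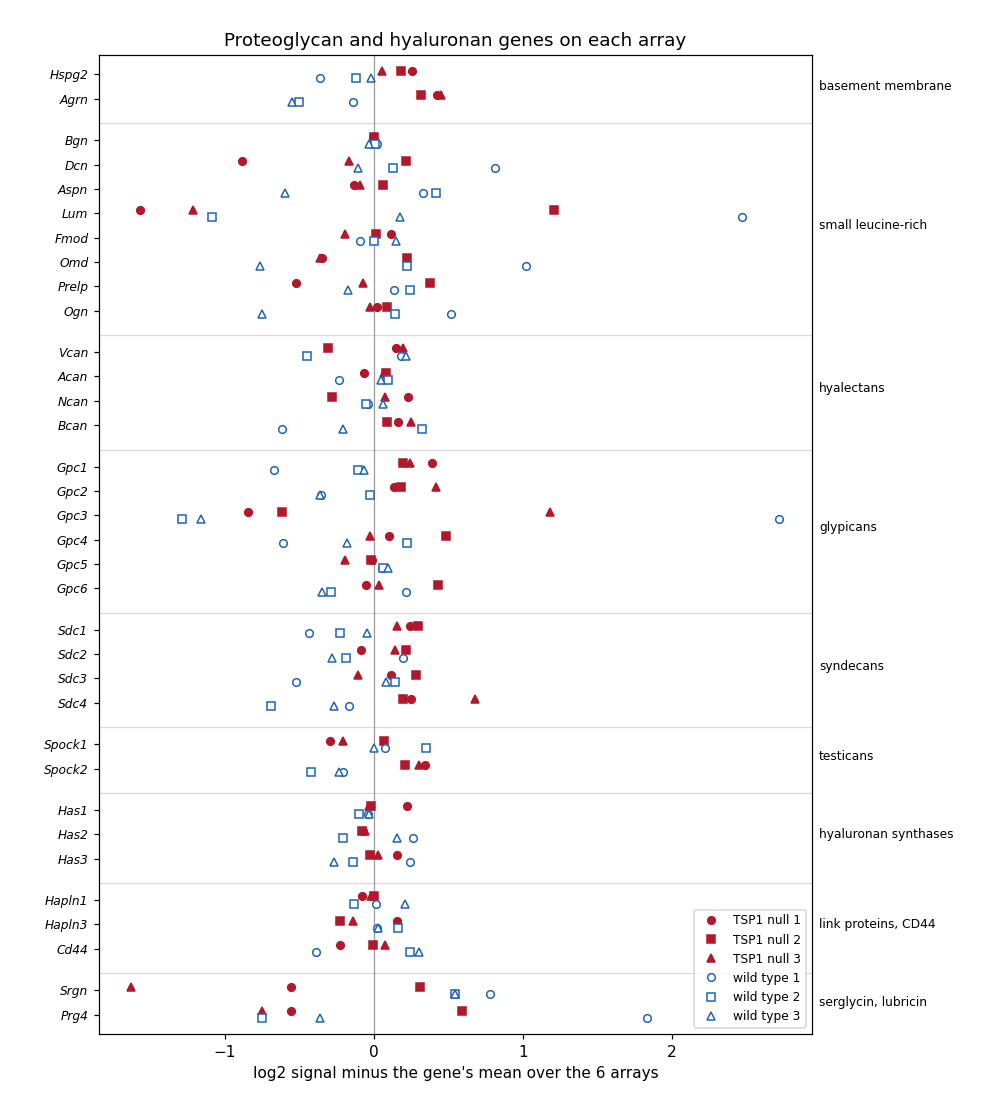
Log2 signal of each of the 34 genes on each array, minus the gene's mean over the 6 arrays (x axis), grouped by family. Filled red symbols are TSP1 null arrays and open blue symbols wild-type arrays, with the shape giving the replicate; Agrn, Hspg2, Sdc1, Sdc4, Gpc1, Gpc2 and Spock2 have all 3 null arrays to the right of the wild-type arrays, and the first wild-type array lies far right for Lum, Gpc3 and Prg4.

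Agrin and perlecan, the heparan sulfate proteoglycans of basement membranes, both had higher signals in the null arrays. Agrn, whose product organizes the neuromuscular synapse and binds laminin, measured 8.05, 7.94 and 8.07 in the null arrays against 7.49, 7.12 and 7.08 in wild type. The groups did not overlap, and the null arrays lay close together. Null exceeded wild type by 0.79 (SE 0.14, n = 3 per group), a 1.73-fold difference, with a limma adjusted p of 0.213, the smallest in the set. It stayed between 0.72 and 0.92 when any 1 array was left out. Hspg2, which encodes perlecan, measured 11.37, 11.29 and 11.17 against 10.75, 10.99 and 11.09. The lowest null array was just above the highest wild-type array. The difference was 0.33 (SE 0.13, 95% interval 0.03 to 0.63), or 1.26-fold (adjusted p = 0.436).

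Syndecans are transmembrane carriers of heparan sulfate, and all 4 had positive differences, with Sdc4 and Sdc1 past an unadjusted p of 0.05. Sdc4, the syndecan of focal adhesions, measured 10.26, 10.20 and 10.69 in the null arrays against 9.84, 9.32 and 9.74 in wild type. Every null array was above every wild-type array. The difference was 0.75 (SE 0.19), or 1.68-fold (limma adjusted p = 0.313). With the mean of the macrophage markers as a covariate it was 0.44. Under that covariate the differences of the other syndecans moved both ways. That of Sdc1 went from 0.47 to 0.60, of Sdc2 from 0.18 to 0.091 and of Sdc3 from 0.20 to 0.52. Sdc1, the main syndecan of epithelia, measured 7.29, 7.34 and 7.20 against 6.61, 6.82 and 7.0, a difference of 0.47 (SE 0.13, 1.38-fold, adjusted p = 0.335). A second Sdc1 probe set (17547680) gave 5.99, 5.76 and 5.79 against 5.51, 5.22 and 5.39. It too separated the groups, with a difference of 0.47. Epithelial markers had mostly positive differences too, and so had 12230 of all 22180 named genes. Of 12 luminal and ductal markers 11 were positive and 1 was higher at an unadjusted p under 0.05, with a mean level of 6.00, 5.62 and 5.54 in the null arrays against 5.34, 5.66 and 5.51 in wild type. Of 10 basal markers 7 were positive and 2 higher, with a mean level of 6.96, 7.04 and 6.69 against 6.54, 6.72 and 6.85. The groups overlapped for both means. Of all genes 6.28% were higher at an unadjusted p under 0.05. The basal differences also held 3 negative ones, down to -0.49. The 3 higher markers, named after their values were seen, were Cldn4, a tight junction gene (0.67, SE 0.21), and the keratins Krt14 (0.89, SE 0.20) and Krt17 (0.82, SE 0.23). The part of epithelial markers in the values of the syndecan, glypican and basement membrane genes was not tested. Sdc2 and Sdc3 differed by 0.18 (95% interval -0.19 to 0.55) and 0.20 (-0.27 to 0.66), and their groups overlapped. Sdc4 lies on the chromosome of Thbs1, chromosome 2, with 538 protein-coding genes between them in the RefSeq order.

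Glypicans, which anchor heparan sulfate to the membrane through a lipid, were mixed. Gpc1 measured 7.98, 7.78 and 7.83 in the null arrays against 6.92, 7.48 and 7.52 in wild type. The groups did not overlap, and the first wild-type array was the lowest. The difference was 0.56 (SE 0.18, 1.47-fold, limma adjusted p = 0.371), or 0.36 without that array. The second Gpc1 probe set (17548970) did not show it: it measured 6.53, 6.77 and 6.92 against 6.89, 6.76 and 6.87, with overlapping groups and a difference of -0.10 (SE 0.14). The mean of both probe sets differed by 0.23, so the value for Gpc1 depends on which probes are read. Gpc2 measured 5.75, 5.80 and 6.03 against 5.26, 5.59 and 5.25, a difference of 0.49 (SE 0.14, 1.41-fold, adjusted p = 0.341). Its signal was below the median of all named genes, where array differences are compressed.

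Gpc4 and Gpc6 had differences of 0.38 (95% interval -0.15 to 0.91) and 0.28 (-0.17 to 0.73), with overlapping groups. That of Gpc4 was 0.17 without the first wild-type array and 0.58 without the second. Gpc5 was dim, at 4.73, 4.72 and 4.54 in the null arrays against 4.79, 4.80 and 4.83 in wild type. Its groups did not overlap, with a difference of -0.14 (SE 0.11). Gpc3, a regulator of growth in the embryo, had a range of 4.01 across the 6 arrays, second in the set to the 4.04 of Lum. It measured 5.37, 5.60 and 7.40 in the null arrays against 8.93, 4.93 and 5.06 in wild type. The first wild-type and the third null array stood apart, and the difference of -0.18 turned to 1.13 without the first wild-type array. With the mean of the macrophage markers as a covariate it was -2.01. Gpc3 and Gpc4 are neighbours on chromosome X with no protein-coding gene between them (0 in the RefSeq order), and on the first wild-type array Gpc3 was at its highest and Gpc4, at 10.10, at its lowest.

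The testicans are secreted proteoglycans with a calcium-binding domain. Spock2 measured 6.29, 6.15 and 6.25 in the null arrays against 5.74, 5.53 and 5.71 in wild type. The 3 arrays of each group lay within a narrow band, and the bands were apart. The difference was 0.57 (SE 0.11), or 1.49-fold (limma adjusted p = 0.25), and it ran from 0.51 to 0.61 when 1 array was left out. Its relative Spock1 had a negative difference of -0.28 (95% interval -0.63 to 0.06), and its groups overlapped.

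**Figure D2:**
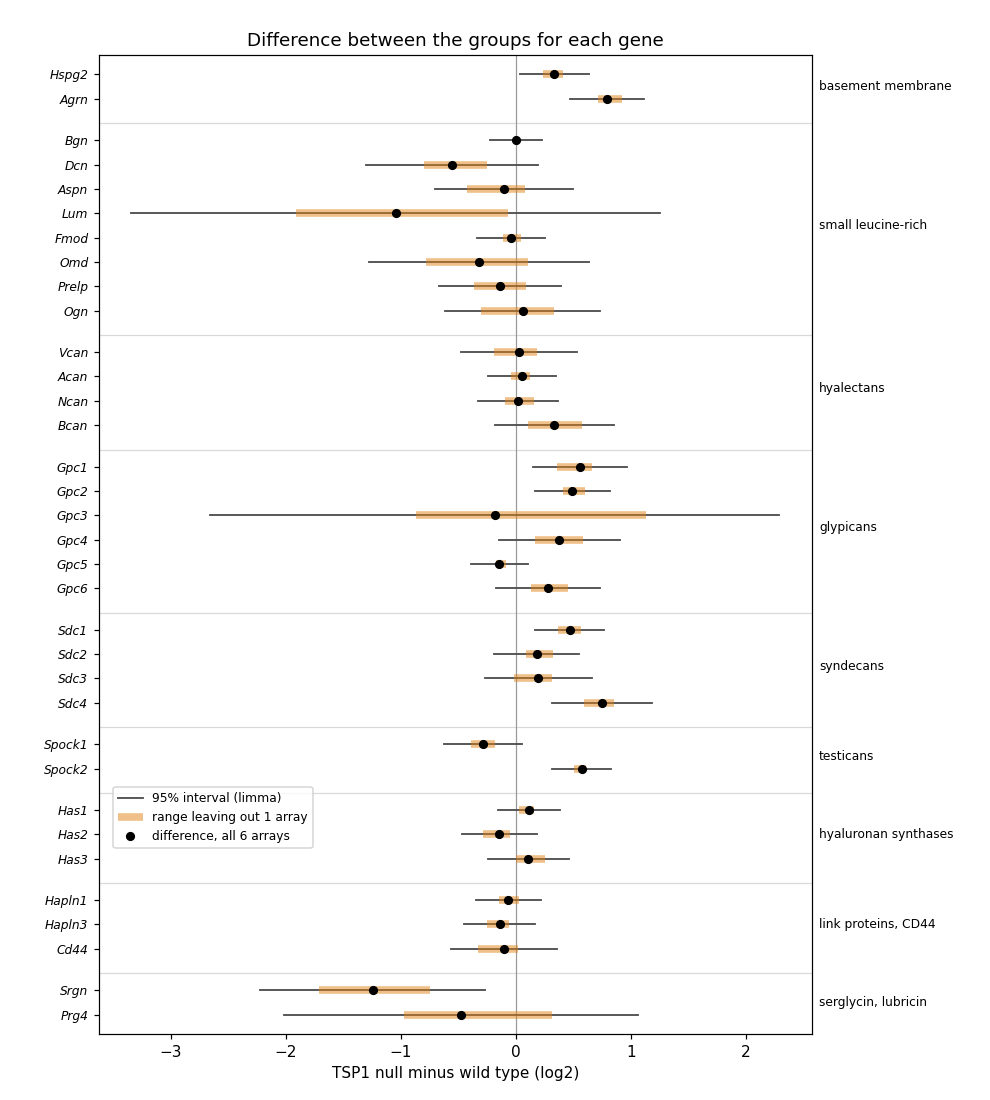
Difference TSP1 null minus wild type for each of the 34 genes (x axis, log2; black points), with limma's 95% interval (thin line) and the range of the difference when 1 of the 6 arrays is left out (orange bar). The intervals of Agrn, Hspg2, Sdc1, Sdc4, Gpc1, Gpc2 and Spock2 lie above 0 and that of Srgn below 0, before any adjustment for the number of genes.

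The promoters of the members past an unadjusted p of 0.05 are shown because 7 of these genes had differences of the same sign, with the one that was lower set beside them. RefSeq's promoter table (GRCm38.p6) held 26 of the 34 members in 28 windows, and the 250 bases before each start were read 5′ to 3′. Capitals mark 2 short motifs, searched on both strands with overlaps counted: GGGCGG, the core of the GC box, and TATAAA, the core of the TATA box. For Agrn and Srgn, which have 2 starts each in the table, the upstream one is shown.
Agrn, chr4:156197489-156197738, minus strand: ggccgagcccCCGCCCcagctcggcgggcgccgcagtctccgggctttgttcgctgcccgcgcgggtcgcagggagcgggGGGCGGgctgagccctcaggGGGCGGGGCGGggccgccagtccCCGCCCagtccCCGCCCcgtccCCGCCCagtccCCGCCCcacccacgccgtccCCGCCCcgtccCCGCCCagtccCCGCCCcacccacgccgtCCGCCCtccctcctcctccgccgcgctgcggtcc
Hspg2, chr4:137468553-137468802, plus strand: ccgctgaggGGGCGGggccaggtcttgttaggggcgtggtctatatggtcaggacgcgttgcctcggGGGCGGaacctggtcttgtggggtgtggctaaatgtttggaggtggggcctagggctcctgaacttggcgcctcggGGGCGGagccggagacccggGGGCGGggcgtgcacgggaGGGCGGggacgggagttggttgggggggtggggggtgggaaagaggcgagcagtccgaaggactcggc
Sdc1, chr12:8771146-8771395, plus strand: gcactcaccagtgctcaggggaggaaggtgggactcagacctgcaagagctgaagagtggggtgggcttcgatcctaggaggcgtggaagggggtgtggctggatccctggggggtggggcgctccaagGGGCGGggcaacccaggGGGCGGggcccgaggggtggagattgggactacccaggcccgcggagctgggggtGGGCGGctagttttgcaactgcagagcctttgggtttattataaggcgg
Sdc4, chr2:164443189-164443438, minus strand: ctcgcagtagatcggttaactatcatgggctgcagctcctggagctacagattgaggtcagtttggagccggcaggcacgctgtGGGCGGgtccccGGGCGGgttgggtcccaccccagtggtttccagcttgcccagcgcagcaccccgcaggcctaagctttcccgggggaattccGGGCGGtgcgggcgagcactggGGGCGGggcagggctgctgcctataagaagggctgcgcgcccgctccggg
Gpc2, chr5:138279938-138280187, minus strand: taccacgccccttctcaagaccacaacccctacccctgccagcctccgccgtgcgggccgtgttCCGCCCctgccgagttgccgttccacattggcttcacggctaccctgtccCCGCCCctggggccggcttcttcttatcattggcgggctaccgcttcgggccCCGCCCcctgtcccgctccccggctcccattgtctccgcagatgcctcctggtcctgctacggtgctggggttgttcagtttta
Spock2, chr10:60106007-60106256, plus strand: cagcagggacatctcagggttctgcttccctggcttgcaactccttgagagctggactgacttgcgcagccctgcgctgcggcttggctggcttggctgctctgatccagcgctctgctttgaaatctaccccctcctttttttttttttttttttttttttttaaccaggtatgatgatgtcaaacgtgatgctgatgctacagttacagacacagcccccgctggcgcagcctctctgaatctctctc
Srgn, chr10:62527446-62527695, minus strand: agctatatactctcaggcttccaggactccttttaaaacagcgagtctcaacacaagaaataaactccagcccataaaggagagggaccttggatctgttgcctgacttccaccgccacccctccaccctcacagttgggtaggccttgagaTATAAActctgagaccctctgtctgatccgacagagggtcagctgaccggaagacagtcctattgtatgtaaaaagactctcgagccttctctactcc
The GC box core was in 5 of the 6 higher members with an entry (Gpc1 has none) and in 10 of the 20 other members. Counted by window and not by gene, it was in 16 of the 28 member windows and in 32.7% of all 32851 windows of this length. TATAAA was in 6 of the 28 and in 12.4% of all. Agrn had 12 matches in the window shown and 2 in its other window, Hspg2 5, Sdc4 4, Sdc1 3 and Gpc2 3. Spock2 had 0, and so had both Srgn windows. GC content was 83.6% and 60.8% for the windows of Agrn and 49.6% and 42.8% for those of Srgn, against a median of 52.4% over all windows. These matches describe letters in the reference and were not tested against the differences.

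Small leucine-rich proteoglycans, the collagen-binding proteoglycans typical of fibroblasts, gave no member past an unadjusted p of 0.05. Of their 8 differences 7 were negative, as were 9950 of all 22180 named genes. Those of Bgn and Fmod were close to 0, at -0.00053 and -0.043. The signs of Bgn, Aspn, Fmod, Omd and Prelp turned under some of the alternatives described below. Bgn, which encodes biglycan, measured 14.14, 14.14 and 14.15 in the null arrays against 14.17, 14.15 and 14.11 in wild type. These values lie near the highest signal on any array, 14.23, where an array has little room to show a difference. Its second probe set (17542364) gave 12.04, 12.09 and 11.80 against 12.33, 11.99 and 11.99, a difference of -0.13 (SE 0.15). Dcn, decorin, measured 11.50, 12.60 and 12.22 against 13.20, 12.51 and 12.28. The first null and the first wild-type array were the extremes, and the difference of -0.55 (95% interval -1.30 to 0.20) was -0.25 without the first null array. Lum, lumican, a keratan sulfate proteoglycan best known from the cornea, measured 5.72, 8.50 and 6.08 against 9.76, 6.21 and 7.47. The arrays of each group were scattered over several doublings. Its difference of -1.05 (95% interval -3.34 to 1.25) was -0.071 without the first wild-type array.

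Dcn and Lum are adjacent on chromosome 10 in the RefSeq order, and for both the first wild-type array was the highest. Aspn (asporin), Omd (osteomodulin) and Ogn (osteoglycin) stand in a row on chromosome 13, and for all 3 the third wild-type array was the lowest, at 10.70, 5.87 and 10.82. Their differences were -0.10, -0.32 and 0.06, each with an interval that included 0. Fmod (fibromodulin) and Prelp, neighbours on chromosome 1, had differences of -0.04 (95% interval -0.34 to 0.25) and -0.14 (-0.67 to 0.39). Fmod spanned only 10.33 to 10.68 over the 6 arrays, while Prelp spanned 12.44 to 13.34.

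Hyalectans are the large chondroitin sulfate proteoglycans that bind hyaluronan. Vcan, versican, the one of loose connective tissue, measured 9.89, 9.43 and 9.93 in the null arrays against 9.92, 9.29 and 9.95 in wild type. The groups overlapped fully, with the second array of each group its lowest, and the difference was 0.03 (95% interval -0.48 to 0.53). Acan of cartilage and Ncan and Bcan of the brain were below the median of all named genes, with signals between 3.72 and 5.75. Their differences were 0.06, 0.02 and 0.33, and none had an interval clear of 0. That of Bcan was 0.11 without the first wild-type array and 0.58 without the second.

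No hyaluronan gene of the set passed an unadjusted p of 0.05. Has2, the main hyaluronan synthase of mesenchymal cells, measured 9.94, 9.94 and 9.96 in the null arrays against 10.28, 9.81 and 10.18 in wild type. The null arrays were nearly identical and lay within the wild-type range, and the difference was -0.14 (95% interval -0.47 to 0.19). Has1 and Has3 were dim, with differences of 0.11 each. The groups did not overlap for Has1, but its lowest null array (4.952) was barely above its highest wild-type array (4.951). Without the first null array the difference of Has1 was 0.031. Cd44, the hyaluronan receptor, measured 8.28, 8.51 and 8.58 against 8.12, 8.75 and 8.81, a difference of -0.11 (95% interval -0.57 to 0.35). The link proteins Hapln1 and Hapln3, which fix hyalectans to hyaluronan, were below the median of all genes and differed by -0.06 and -0.14. Hapln1 stands next to Vcan, and Hapln3 next to Acan, in the gene order. Cd44 lies on the chromosome of Thbs1 with 112 protein-coding genes between.

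Srgn, which encodes serglycin, the proteoglycan of secretory granules in blood cells and macrophages, was the one member lower at an unadjusted p under 0.05. It measured 9.01, 9.88 and 7.94 in the null arrays against 10.34, 10.11 and 10.11 in wild type. The wild-type arrays were close together, and the null arrays spread below them, lowest on the third. The difference was -1.24 (SE 0.42), or 2.37-fold lower, with a limma adjusted p of 0.391, and it was -0.74 without the third null array. Macrophage markers were lower too: all 20 had negative differences, 14 at an unadjusted p under 0.05, and their mean level was 8.99, 9.78 and 7.37 in the null arrays against 9.58, 10.30 and 10.43 in wild type. The lowest value of the list, as of Srgn, was on the third null array. The first wild-type array, where Srgn was highest, had the lowest list mean of the wild-type arrays, below that of the second null array. With the mean of this list as a covariate the difference of Srgn was -0.34 (limma adjusted p = 0.886, over a range of 0.116 to 0.886 across all alternatives). The list mean itself differed between the groups, at 8.71 in null and 10.10 in wild type, so that fit cannot separate it from the group. The part of macrophage markers in the value of Srgn was not tested. In bulk RNA fewer cells of a type and less RNA per cell cannot be told apart.

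Prg4, lubricin, a mucin-like lubricant of joints and the ocular surface, measured 5.44, 6.58 and 5.24 in the null arrays against 7.82, 5.25 and 5.63 in wild type. The first wild-type array and, less so, the second null array stood above the rest. The difference of -0.48 (95% interval -2.02 to 1.06) was 0.32 without the first wild-type array. Lum, Gpc3, Prg4, Omd and Dcn were all highest on that array, as were Bgn, Ogn, Has2, Has3 and Srgn (10 members in all). Aspn, Fmod and Prelp were highest on other arrays, and 8 members were lowest on the first wild-type array. The 16 fibroblast markers that are not members had a mean level of 10.25, 10.55 and 10.23 in the null arrays against 10.60, 10.01 and 10.12 in wild type, so the list was also highest there. Of these markers 3 were higher at an unadjusted p under 0.05 and 0 lower, with a median difference of 0.02. The part of fibroblast markers in the values of these members was not tested.

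**Figure D3:**
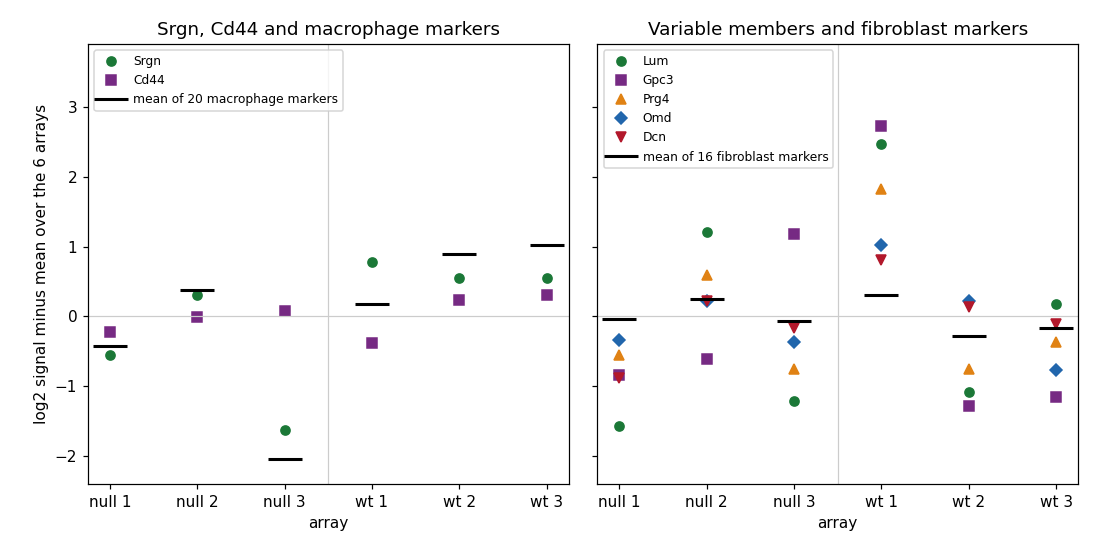
Log2 signal minus the mean over the 6 arrays (y axis) on each array (x axis). On the left, Srgn (circles) is lowest on the third null array, as is the mean of 20 macrophage markers (bars), while Cd44 (squares) is not, and Srgn but not that mean is highest on the first wild-type array; on the right, Lum, Gpc3, Prg4, Omd and Dcn are highest on the first wild-type array, as is the mean of 16 fibroblast markers. In all 10 members were highest on that array, and not all of them are drawn.

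Genes that build, modify and break down the chains, cleave core proteins or encode further core proteins were read from lists made from knowledge of the pathway. Earlier results of these data were known when the lists were made. Of their 118 measured genes, 0 passed the adjusted threshold, and 17 were higher and 1 lower at an unadjusted p under 0.05. That is 15.3%, beside 10.6% of all genes. The median difference was 0.09. Of 18 genes that polymerise and sulfate heparan sulfate, 3 were higher and 0 lower, among them Ext1, a subunit of the chain polymerase. It measured 11.33, 11.55 and 11.49 in the null arrays against 10.96, 11.25 and 11.22 in wild type, a difference of 0.31 (SE 0.13). The groups did not overlap. Hs6st1, a sulfotransferase, differed by 0.58 (SE 0.23), with groups that overlapped.

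Of 12 genes of chondroitin and dermatan sulfate synthesis, 2 were higher and 1 lower. Chsy1, a chondroitin synthase, measured 10.05, 9.90 and 9.91 against 9.42, 9.45 and 9.60, a difference of 0.46 (SE 0.11, limma adjusted p = 0.298). Chst3, a chondroitin sulfotransferase, was the lower one at -0.39 (SE 0.13) and was dim. Of 11 genes that start the chains 1 was higher, Pxylp1, a phosphatase of the linkage sugar (0.42, SE 0.12), and Fam20b, the opposing kinase, differed by 0.31 (SE 0.14). Donors of sugar and sulfate had 3 of 13 higher and 0 lower. Papss1, which makes the sulfate donor, measured 9.50, 9.50 and 9.75 against 9.19, 9.12 and 9.13. Every null array was above every wild-type array, with a difference of 0.43 (SE 0.12, adjusted p = 0.324). Gfpt2, of the hexosamine pathway, differed by 0.51 (SE 0.16).

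Of 14 genes of hyaluronan turnover and binding, 2 were higher and 0 lower. Cemip, which binds and degrades hyaluronan, measured 12.75, 12.92 and 12.83 in the null arrays against 12.23, 12.46 and 12.33 in wild type. The groups were well apart, with a difference of 0.49 (SE 0.11, 1.41-fold, limma adjusted p = 0.294), while the synthase Has2 had the interval given above. Itih5, a protein that binds hyaluronan, differed by 0.40 (SE 0.13) and was dim. The list of lysosomal chain breakdown and related genes had 0 of 12 past an unadjusted p of 0.05 in either direction and a median of -0.07. The smallest p values there belonged to Arsg (0.23, SE 0.099) and Hpse2 (-0.20, SE 0.098).

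Of 15 proteases and inhibitors that act on core proteins, 2 were higher and 0 lower. Mmp14, a membrane protease that sheds syndecan-1 and other surface proteins, measured 11.97, 11.99 and 12.00 against 11.42, 11.73 and 11.73, a difference of 0.36 (SE 0.12). Its null arrays were nearly identical and all above the wild-type arrays. Adamts8 differed by 0.53 (SE 0.18). Of 23 further genes listed with core proteins, 4 were higher and 0 lower. The list also took in the link proteins Hapln2 and Hapln4 and the cohesin gene Smc3, which were not among the 4. Col18a1 and Col15a1, the basement membrane collagens that carry chains, differed by 0.55 (SE 0.12) and 0.85 (SE 0.25), and both had null arrays all above the wild-type arrays.

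**Figure D4:**
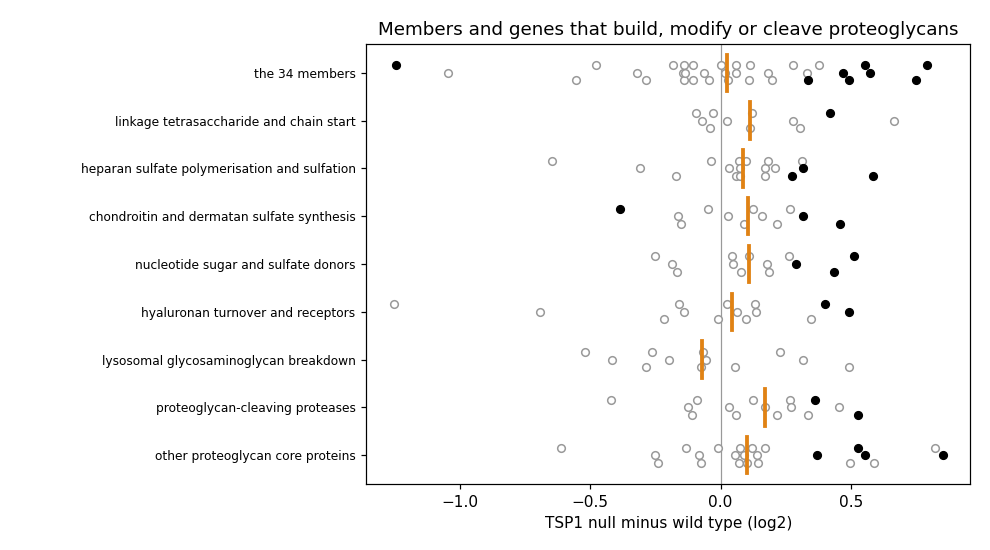
Difference TSP1 null minus wild type (x axis, log2) for the 34 members and for each list of chain-building, chain-degrading and core protein genes. Each circle is a gene, filled where the unadjusted limma p is under 0.05, and the orange bar is the median of the list; 17 of the 118 pathway genes are filled on the right of 0 and 1 on the left.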

How the data were processed

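Per the labels, the 6 arrays hold biotin-labelled total RNA, and groups and replicate numbers came from the sample titles. The values are the authors' deposited log2 signals, normalized across arrays, for 41345 probe sets; Partek and RMA are named in the submitters' processing notes, without versions or settings, and no genome build is stated. RMA compresses differences of dim probe sets, and 10 members lay at or below the median of all genes (5.92). Of the probe sets, the platform annotation named 23521 with 1 symbol, 1814 with several and left 16010 unnamed. Each gene took its probe set of highest mean, with no intensity filter. The comparison used limma 3.58.1 in R 4.3.3 (lmFit, eBayes, two-sided) on all 6 arrays without covariates, with Benjamini-Hochberg adjustment over 22180 genes. The procedure was run on simulated data in which each gene varied independently, with no effect shared by the genes of an array. The checks there covered the size and sign of estimated differences and not the count of genes called. Lists were described by counts and medians, with no set test. All 34 members matched RefSeq (GRCm38.p6) by Entrez identifier. That table served for gene order. Figures used matplotlib 3.10.9 in Python 3.11.15. The rule for named genes took Thbs1, all members, the 2 genes of smallest p per pathway list and, where a result needed them, the brightest markers of a cell type list. Members and lists were chosen with earlier results of these data known.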

Additional observations from a re-analysis of the deposited data

How the results depend on the processing

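With 3 arrays per group the number of arrays limits precision, and the median SE of a difference over all genes was 0.14. No member passed the adjusted threshold under any of the 14 alternatives run (0 members in each), though outside the set 34 genes passed when the second null array was left out, and 1 when the first wild-type array was. The smallest adjusted p of a member was 0.0811, for Agrn with array weights, within a range of 0.0811 to 0.796 for that gene. Over quantile normalization, median centring, the mean of probe sets, a trend and robust prior, array weights and the omission of dim genes, 7 or 8 members had an unadjusted p under 0.05. With all 22180 genes kept, 2230 to 3209 of them did so, most with array weights. With dim genes omitted the base was smaller: 1589 of the 11090 genes left and 7 of the 24 members left. Leaving out 1 array gave 6 to 10 members, 5 to 8 higher and 1 to 3 lower, with 10 to 15 whose groups did not overlap, a median difference of 0.017 to 0.11, and 12 to 23 pathway genes. In these fits 1487 to 2736 of 22180 genes had an unadjusted p under 0.05, beside 2341 in the full fit. The share of all genes without overlap was not computed for them. Groups separate more easily with fewer arrays, so those counts are not set against the full fit. With the macrophage list mean as a covariate 7 members were higher and 0 lower, beside 1370 of all genes in either direction. Of the 8 members of the full fit 5 were among them. That list mean differed between the groups, so this fit cannot separate it from the group. The replicate number as a block gave 8 members (2215 of all genes), 7 of them among those 8, and 0 called. Deviations of same-numbered arrays correlated at -0.14, 0.18 and -0.16, and not every array correlated best with its own number, so the numbers were not taken as pairs.

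Of the 34 members, 20 kept their sign under every alternative run for them and 14 did not, all of the latter with intervals that include 0. The 10 members at or below the median of all genes have no value where dim genes were left out. Bgn turned to 0.014 with quantile normalization, 0.037 with median centring and 0.011 with array weights. Array weights also turned Aspn to 0.088 and Gpc3 to 0.54. The macrophage covariate turned Fmod to 0.12, Ogn to -0.083, Vcan to -0.24 and Ncan to -0.11, and moved Gpc3 to -2.01 and Gpc4 to 0.73 with no change of sign. Leaving out 1 array gave -0.017 to 0.011 for Bgn, -0.43 to 0.077 for Aspn, -0.11 to 0.041 for Fmod, -0.78 to 0.11 for Omd and -0.36 to 0.086 for Prelp. It gave -0.30 to 0.33 for Ogn, -0.19 to 0.19 for Vcan, -0.046 to 0.12 for Acan, -0.095 to 0.16 for Ncan and -0.87 to 1.13 for Gpc3. It gave -0.016 to 0.32 for Sdc3, -0.14 to 0.024 for Hapln1, -0.33 to 0.020 for Cd44 and -0.97 to 0.32 for Prg4. The cause was not tested.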

Other observations

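For most members the wild-type arrays were the more variable. The same count over all genes was not made, so this cannot be called a trait of the members. Array weights, fitted on all named genes, were lowest for the first wild-type array (0.52) and highest for the third (1.725). The SD between arrays was larger in the wild-type group for 25 of the 34 members and larger in the null group for 9, with medians of 0.25 and 0.155. The first wild-type array was the highest of the 6 for 10 members and the lowest for 8. A range over 1 log2 unit across the 6 arrays was seen for 11 members.

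Probe sets that carry a member's symbol together with another gene's stayed out of the comparison. The probe set shared by Has2 and its antisense gene Has2os measured 6.76, 6.13 and 6.76 in the null arrays against 6.42, 6.79 and 6.45 in wild type. The one shared by Gpc2 and Gal3st4 measured 4.67, 5.54 and 5.50 against 5.43, 5.25 and 4.81, and its groups overlapped, unlike those of the probe set of Gpc2 alone.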
